A study of Mus musculus with 18 samples.

Results

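Nuclear RNA of 9 genes of glucocorticoid signalling was followed through a fast in mouse liver, namely the glucocorticoid receptor gene Nr3c1 and 8 genes that glucocorticoids or their supply are classically tied to, Hsd11b1, Fkbp5, Tsc22d3, Zbtb16, Klf9, Klf15, Sgk1 and Slc10a6. The genes were chosen by symbol, and all 9 were found among the 20105 genes of the count table. All samples came from HEP-INTACT females, whose hepatocytes carry a tag on the nuclear membrane that lets beads bind their nuclei in an immunoprecipitation (IP). The labels used here do not give the promoter that drives the tag, the strain background or the age of the mice. The fasted mice went without food for 16 h, beginning at zeitgeber time 12 when mice become active, and the fed mice ate ad libitum. Any part of the time of day at killing in the differences between fasted and fed mice was not tested. From 3 fasted and 3 fed mice came 3 libraries each, the IP of frozen liver, the IP of fresh liver, and the supernatant (Sup) of nuclei that the fresh IP left behind, which makes 18 libraries in 6 groups of 3.

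Glucocorticoids are adrenal steroids whose release follows the time of day and rises with stress and food shortage, and in liver they favour glucose output and amino acid breakdown. The receptor waits in the cytosol in a complex with heat shock proteins and immunophilins, moves to the nucleus when it binds hormone, and binds DNA elements built from a pair of 6-letter half-sites. Several of its direct target genes feed back on it, among them Fkbp5, whose product lowers the affinity of the receptor for hormone, so their transcripts are widely used as a readout of receptor activity. Plasma corticosterone, receptor protein and DNA binding were not measured in the data used here.

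The 9 genes lie on 9 chromosomes of the mm10 build. The counted span runs from the first to the last base of a gene, introns included, and was longest in Zbtb16 (181.6 kb) and shortest in Klf15 (12.6 kb). The promoter table of RefSeq (build GRCm38.p6) holds 14 start sites of 7 of these genes, all but Nr3c1 and Zbtb16, with 250 bases before and 50 after each start. Every window was searched on both strands for the half-site AGAACA, whose reverse complement is TGTTCT, and for the full palindrome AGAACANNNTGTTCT, whose ends are those 2 half-sites. The 15-letter palindrome stood in 3 of all 32851 mouse windows, and 1 of the 3 belonged to Sgk1. The half-site is common and stood in 6233 windows (19.0%), including 5 of the 14 windows examined, in 3 genes. Below are the 250 bases before the start at the Sgk1 window with the palindrome and at the windows of Slc10a6 and Tsc22d3 with a half-site at the start of the counted span. The Fkbp5 window, with no match, is shown for contrast, since Fkbp5 had one of the largest changes. Capitals mark each match, and each sequence runs 5′ to 3′ on the strand of its gene.
Sgk1, chr10:21993640-21993889, plus strand: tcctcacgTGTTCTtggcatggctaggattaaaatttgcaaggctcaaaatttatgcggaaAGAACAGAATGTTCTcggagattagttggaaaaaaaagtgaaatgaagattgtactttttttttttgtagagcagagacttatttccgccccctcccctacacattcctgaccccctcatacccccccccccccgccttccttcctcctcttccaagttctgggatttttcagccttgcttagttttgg
Slc10a6, chr5:103629404-103629653, minus strand: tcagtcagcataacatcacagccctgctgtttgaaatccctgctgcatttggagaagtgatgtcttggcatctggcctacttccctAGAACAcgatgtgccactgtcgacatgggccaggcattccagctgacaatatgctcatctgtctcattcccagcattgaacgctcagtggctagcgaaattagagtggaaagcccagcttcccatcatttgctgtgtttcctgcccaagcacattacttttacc
Tsc22d3, chrX:140600523-140600772, minus strand: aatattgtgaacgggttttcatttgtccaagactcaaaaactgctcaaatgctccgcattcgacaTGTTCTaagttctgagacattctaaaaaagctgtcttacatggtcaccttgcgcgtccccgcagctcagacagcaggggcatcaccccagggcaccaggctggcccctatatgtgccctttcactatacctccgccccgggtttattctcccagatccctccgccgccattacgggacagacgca
Fkbp5, chr17:28486150-28486399, minus strand: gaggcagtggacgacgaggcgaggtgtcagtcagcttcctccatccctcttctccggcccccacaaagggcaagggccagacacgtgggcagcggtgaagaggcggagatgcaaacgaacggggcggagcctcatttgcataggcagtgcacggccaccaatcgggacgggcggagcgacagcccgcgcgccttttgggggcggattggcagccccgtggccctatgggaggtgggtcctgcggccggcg
In the Sgk1 window the palindrome begins 189 bases before a start site that lies inside the counted span, and a further half-site begins at 242 bases. The half-sites of Slc10a6 and Tsc22d3 begin 164 and 185 bases before their starts. A match describes letters only and is not a measured binding site, and the windows without a match say nothing of elements farther away.

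Total counts ran from 13828945 to 54434263 per library. The 15 hepatocyte marker genes summed to 16041 to 29539 CPM (counts scaled to the effective library size) in the 12 IP libraries and to 682 to 1710 CPM in the 6 Sup libraries. The median difference of these 15 markers was 4.53 on the log2 scale, all of them higher in IP. Endothelial markers summed to 43.6 to 157 CPM in fresh IP against 3055 to 5083 CPM in Sup, and macrophage markers to 14.9 to 26.8 CPM against 4456 to 8183 CPM. Of the cholangiocyte markers, 4 of 6 tested were also higher in IP. Frozen IP held more endothelial and macrophage marker RNA than fresh IP: endothelial markers summed to 138 to 200 CPM in frozen IP of fasted mice against 43.6 to 96.9 CPM in fresh IP, with 14 of 15 called higher, and 8 of 13 macrophage markers were called higher. Of the stellate cell markers 3 of 10 were called higher in frozen IP, with sums in fasted mice of 47.9 to 59.7 CPM against 46.0 to 60.0 CPM in fresh IP, and 0 of 8 cholangiocyte markers were. The title of 1 frozen fed library carries a library number outside the run of the others, and the labels do not say which column it is. The titles name a mouse for each library, and the columns carry only a letter, A, B or C. Within a feeding state, libraries with the same letter deviated together, so a letter is read here as a mouse.

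The fasting comparisons ask how each gene differed between 16 h without food and ad libitum feeding in 1 kind of nuclei. In tagged hepatocyte nuclei of fasted mice the receptor gene Nr3c1 was lower, and Zbtb16, Klf9 and Fkbp5 were higher. The same 4 calls were made in fresh and in frozen IP. In the Sup of fasted mice Slc10a6, Fkbp5, Zbtb16, Klf9, Tsc22d3 and Sgk1 were higher and Nr3c1 was lower. Differences are log2 fold changes of fasted over fed with the standard error (SE) of the difference of group means, and a gene was called at an edgeR quasi-likelihood adjusted p under 0.05.

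**Figure D1:**
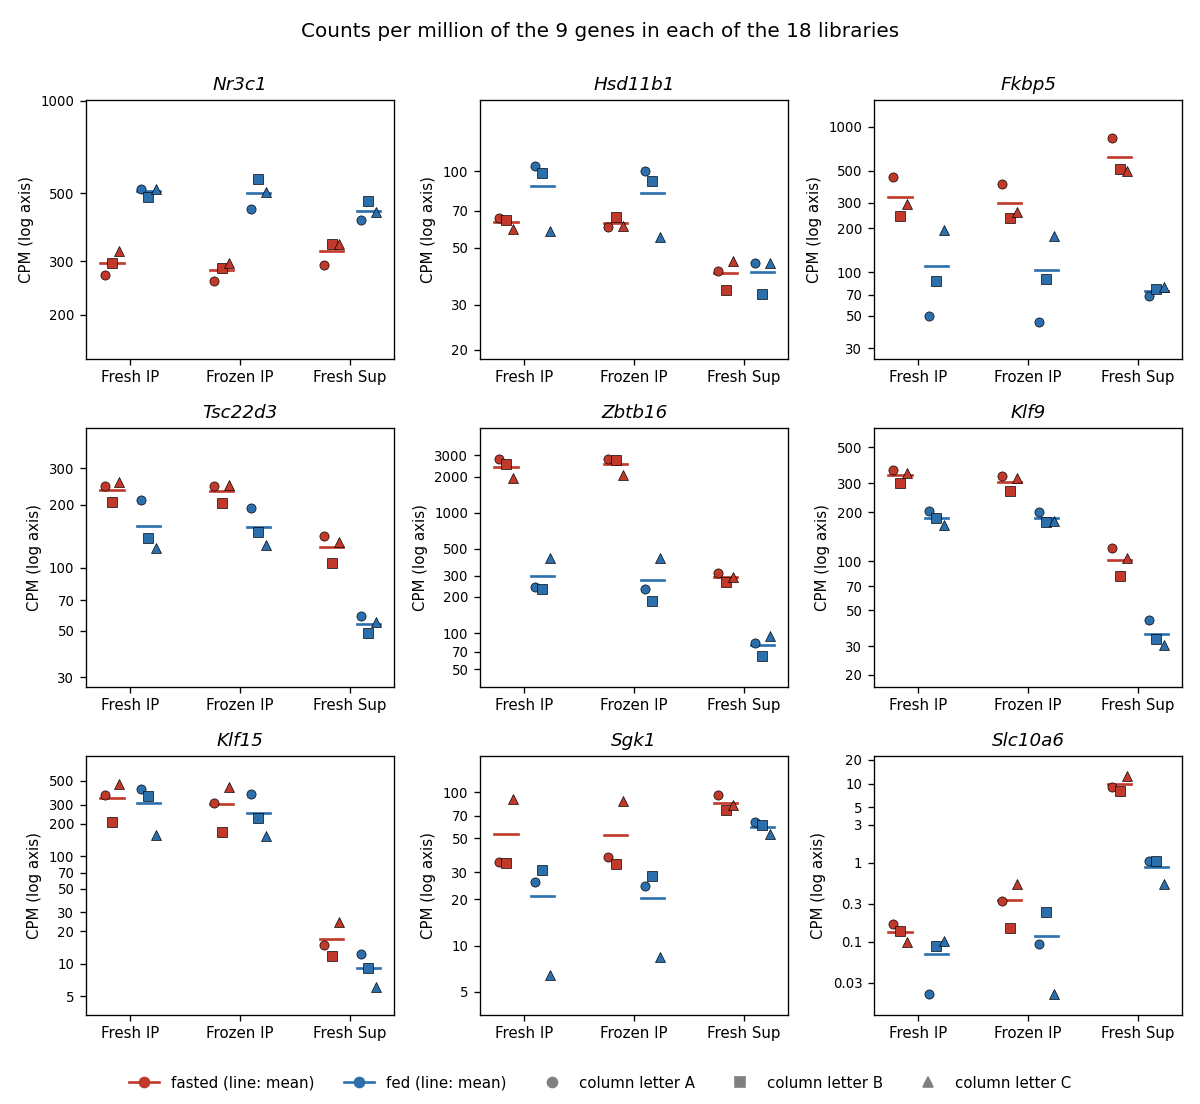
CPM of the 9 genes on log axes, with fasted libraries in red left of fed libraries in blue for each preparation; symbols give the column letter and lines the mean of 3 libraries. Fasted and fed libraries were apart in Nr3c1, Zbtb16, Klf9, Fkbp5 and Sgk1 in all 3 preparations, and Slc10a6 reached 8.06 to 12.3 CPM in Sup of fasted mice and at most 1.05 CPM in any other library.

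Of the 9 genes, 8 had enough counts to be tested in fresh IP, and 4 of the 8 were called, 3 higher and 1 lower. Over all 12548 genes tested there, 25.1% were called, 12.4% higher and 12.6% lower. Frozen IP likewise gave 4 calls among 8 genes, 3 higher and 1 lower, against 22.6% of 12926 genes, 11% higher and 11.6% lower. The fresh Sup gave 7 calls among 9 genes, 6 higher and 1 lower, against 6.22% of 13921 genes, 3.38% higher and 2.84% lower. The median log2 fold change of the genes tested was 0.75 in fresh IP, 0.65 in frozen IP and 1.23 in Sup, where the medians of all genes tested were 0.011, 0.005 and 0.005. Fasted and fed libraries did not overlap in 5 of 8 genes in fresh IP, where 44.9% of all genes tested did not, in 6 of 8 in frozen IP (45% of all) and in 7 of 9 in Sup (29.1% of all). In these nuclear RNA values of pooled nuclei, fewer nuclei of a type and less RNA per nucleus cannot be told apart.

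Nr3c1, the receptor itself (chr18:39410545-39487245, minus strand), had 271, 295 and 323 CPM in fresh IP of fasted mice, against 516, 485 and 517 CPM in fed mice (letters A, B and C). The groups were far apart, with every fasted library below every fed one. The log2 fold change was -0.75 ± 0.08 (adjusted p = 0.0054), or 0.59 of the fed level. Frozen IP of the same mice gave 259, 285 and 297 CPM in fasted and 442, 558 and 503 CPM in fed mice, again a clean separation. The change there was -0.84 ± 0.11 (adjusted p = 0.0059). Leaving out any 1 library kept both calls, with values from -0.92 to -0.69. In Sup, Nr3c1 had 291, 342 and 341 CPM in fasted mice and 409, 471 and 433 CPM in fed mice. The Sup groups did not overlap either, and the change was -0.42 ± 0.10 (adjusted p = 0.0460), but this call ended when any 1 of the 6 libraries was left out (adjusted p from 0.0534 to 0.152, log2 fold change from -0.47 to -0.35).

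Hsd11b1 (chr1:193221641-193264045, minus strand) encodes the reductase that turns inactive 11-dehydrocorticosterone back into corticosterone inside hepatocytes. It had 65.3, 64.3 and 59.4 CPM in fresh IP of fasted mice and 105, 98.6 and 58.2 CPM in fed mice. Fed libraries A and B stood above all fasted ones, and fed C stood below them. The change was -0.45 ± 0.27 (adjusted p = 0.142) in fresh IP and -0.39 ± 0.27 (adjusted p = 0.210) in frozen IP. Without fed C it was called lower, at -0.67 (adjusted p = 0.0082) in fresh and -0.62 (adjusted p = 0.0212) in frozen IP. In Sup the means were 39.8 ± 5.06 CPM in fasted and 40.2 ± 6.08 CPM in fed mice (SD, n = 3 each), a difference of -0.01 ± 0.17. In GENCODE M21 the genes Lamb3 and 4930570N18Rik overlap Hsd11b1 on the other strand, and the strand setting of the counting was not given in the sources used here.

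Fkbp5 (chr17:28398753-28486149, minus strand) encodes the immunophilin FKBP51, the co-chaperone of the feedback loop. In fresh IP it had 449, 245 and 294 CPM in fasted mice and 50.0, 86.8 and 195 CPM in fed mice. All fasted libraries were higher than all fed ones, but the fed libraries were widely spread, with fed C the highest, and the change of 1.58 ± 0.63 (adjusted p = 0.0471) had a wide error. The call ended without fed A (1.23, adjusted p = 0.0869), fed B (1.43, 0.139), fasted A (1.29, 0.148) or fasted C (1.66, 0.0750), in each case with the same direction, and without fed C the value was 2.29. Frozen IP had 401, 237 and 260 CPM in fasted mice and 45.6, 89.2 and 176 CPM in fed mice, the same order of letters. Its change was 1.53 ± 0.61 (adjusted p = 0.0416), and that call ended without any 1 library other than fed C (adjusted p from 0.0596 to 0.133), without which the value was 2.15. In Sup, Fkbp5 had 843, 516 and 499 CPM in fasted mice and 68.4, 76.3 and 78.9 CPM in fed mice. There fed C did not stand apart, and the change of 3.07 ± 0.25 (adjusted p = 0.0015), or 8.37-fold, stayed called without any 1 library. AC154912.1 and Gm22146 overlap Fkbp5 on the other strand in GENCODE M21.

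Tsc22d3 (chrX:140539529-140600522, minus strand) encodes GILZ, a leucine zipper protein that carries part of the anti-inflammatory action of glucocorticoids. In Sup it had 141, 105 and 132 CPM in fasted mice and 58.7, 48.7 and 54.8 CPM in fed mice, with a wide gap between the groups. The change was 1.23 ± 0.15 (adjusted p = 0.0051), or 2.35-fold, and it stayed called without any 1 library. In fresh IP it had 246, 206 and 258 CPM in fasted mice and 210, 140 and 125 CPM in fed mice. Fed A lay within the fasted range, and the change of 0.60 ± 0.25 was not called (adjusted p = 0.0616). The frozen IP value was 0.56 ± 0.20 (adjusted p = 0.0504), just over the threshold. Without fed A the gene was called higher in both, at 0.85 (adjusted p = 0.0188) in fresh and 0.75 (adjusted p = 0.0268) in frozen IP.

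Zbtb16 (chr9:48654297-48835945, minus strand), which encodes the zinc finger repressor PLZF, had the largest fold of the 8 genes tested in IP. Fresh IP had 2793, 2520 and 1948 CPM in fasted mice and 241, 233 and 425 CPM in fed mice. The lowest fasted library was thus far above the highest fed library, fed C. The change was 3.03 ± 0.32 (adjusted p = 0.0011), or 8.16-fold, and in frozen IP 3.19 ± 0.38 (adjusted p = 0.0011), or 9.10-fold. In Sup it had 313, 266 and 290 CPM in fasted mice and 82.3, 64.5 and 93.9 CPM in fed mice, a change of 1.86 ± 0.17 (adjusted p = 0.0024). Sup also held hepatocyte marker RNA, 1071 to 1710 CPM in fasted and 682 to 1151 CPM in fed mice. The part of hepatocyte RNA in the Sup values of Zbtb16 was not tested. All 3 calls held without any 1 library.

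Klf9 and Klf15 encode Krüppel-like zinc finger factors, of which KLF15 is known in liver for control of amino acid catabolism. Klf9 (chr19:23141226-23166911, plus strand) had 363, 303 and 347 CPM in fresh IP of fasted mice and 204, 183 and 166 CPM in fed mice. Every fasted library was above every fed one, and the change was 0.89 ± 0.12 (adjusted p = 0.0037). Frozen IP gave 0.75 ± 0.12 (adjusted p = 0.0084). In Sup, Klf9 had 121, 81.4 and 104 CPM in fasted mice and 43.6, 33.4 and 30.5 CPM in fed mice, a change of 1.52 ± 0.23 (adjusted p = 0.0072). Leaving out any 1 library kept the 3 calls. Klf15 (chr6:90462626-90475209, plus strand) had 366, 208 and 470 CPM in fresh IP of fasted mice and 418, 365 and 158 CPM in fed mice. Its groups overlapped almost fully, at 0.18 ± 0.56 (adjusted p = 0.767), and so did those of frozen IP, at 0.29 ± 0.55 (adjusted p = 0.629). Klf15 in Sup averaged 17.1 ± 6.53 CPM in fasted and 9.18 ± 3.12 CPM in fed mice (SD, n = 3 each), at 0.91 ± 0.42 (adjusted p = 0.136). The part of hepatocyte RNA in the Sup values of Klf9 and Klf15 was not tested either.

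Sgk1 (chr10:21882184-21999902, plus strand) encodes a serine/threonine kinase that regulates ion channels and FOXO factors. Fresh IP had 34.8, 34.8 and 91.0 CPM in fasted mice and 26.0, 31.0 and 6.38 CPM in fed mice. The groups did not overlap, but fasted C was far above and fed C far below the other libraries, and 1.37 ± 0.85 was not called (adjusted p = 0.123). Frozen IP repeated that pattern, with 38.0, 33.9 and 87.1 CPM in fasted and 24.3, 28.4 and 8.39 CPM in fed mice, at 1.39 ± 0.70 (adjusted p = 0.0773). In Sup, Sgk1 had 95.3, 77.0 and 82.5 CPM in fasted mice and 63.5, 61.0 and 53.5 CPM in fed mice, a small difference with little spread. The change of 0.53 ± 0.12 was called (adjusted p = 0.0322), but the call ended without any 1 library other than fasted B (adjusted p from 0.0534 to 0.103) and in a fit of all 18 libraries (0.53, adjusted p = 0.715).

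Slc10a6 (chr5:103605711-103629403, minus strand) encodes SOAT, a sodium-dependent transporter of sulfated steroids, and its signal lay almost wholly outside the tagged nuclei. Its raw counts were 6, 7 and 3 in fresh IP of fasted mice and 1, 2 and 4 in fed mice, too few for a test. Frozen IP had 13, 6 and 21 counts in fasted mice and 3, 3 and 1 counts in fed mice, beside the larger share of endothelial and macrophage marker RNA in frozen IP, whose part in these counts was not tested. Sup had 9.0, 8.06 and 12.3 CPM (410, 329 and 500 counts) in fasted mice and 1.05, 1.03 and 0.54 CPM (43, 40 and 18 counts) in fed mice. The Sup change of 3.47 ± 0.35 (adjusted p = 0.0024), or 11.1-fold, was the largest of the 9 genes and held without any 1 library. The gene Gm15844 overlaps Slc10a6 on the other strand in GENCODE M21.

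**Figure D2:**
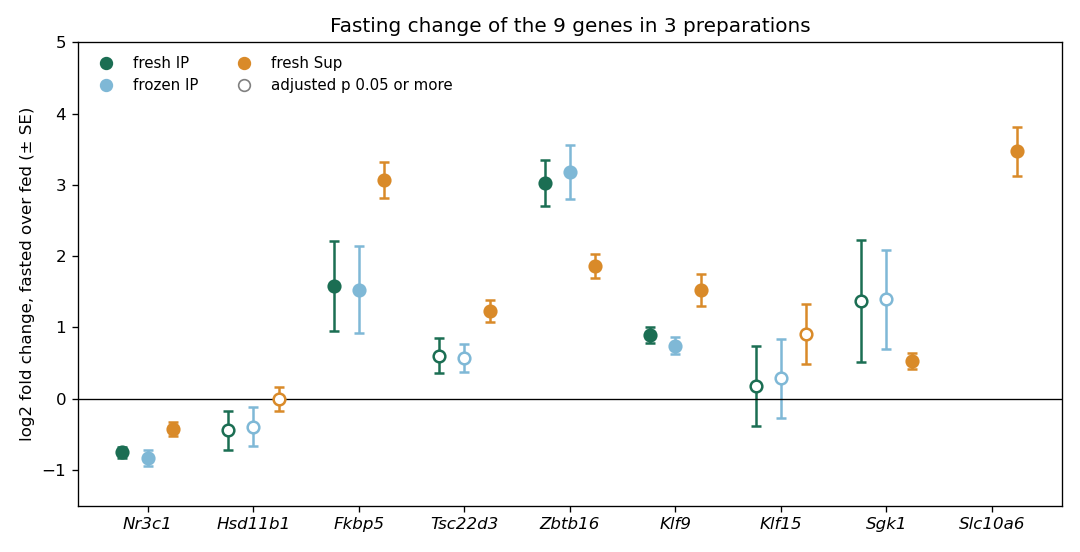
Log2 fold change of fasted over fed, with its SE, for each gene in fresh IP, frozen IP and fresh Sup (3 libraries against 3 each); open circles have an adjusted p of 0.05 or more. Fresh and frozen IP lie close together for the 8 genes tested in both. The Sup value lies higher for Fkbp5, Tsc22d3, Klf9, Klf15, Nr3c1 and Hsd11b1 and lower for Zbtb16 and Sgk1. By edgeR without a block 0 of these 8 genes were called for the response of IP minus Sup. Slc10a6 was tested only in Sup.

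The authors' deposited table gives its own log2 fold changes for the 2 IP preparations, and it lists more of these genes under an adjusted p of 0.05. In the authors' deposited table Tsc22d3 is at 0.54 (adjusted p = 0.0232) in fresh and 0.49 (adjusted p = 0.0375) in frozen IP, and Sgk1 at 1.29 (adjusted p = 0.0468) and 1.30 (adjusted p = 0.0445). Slc10a6 is at 0.99 (adjusted p = 0.336) in fresh and 1.95 (adjusted p = 0.0187) in frozen IP of the authors' deposited table. Hsd11b1 and Klf15 are above 0.05 in both preparations there.

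No difference of the fasting response between frozen and fresh liver of the same mice was detectable in these genes. The difference of the response, frozen minus fresh, lay between -0.15 (Klf9) and 0.15 (Zbtb16) for the 8 genes tested, with SEs of the within-mouse difference from 0.05 to 0.21. By edgeR without a block 0 of 8 were called and 0 were at an unadjusted p under 0.05. That fit leaves out the pairing by mouse, so its p-values do not use the within-mouse SEs. Each of the 8 genes also stayed uncalled in 17 alternative fits, the mouse as a replicate block among them (lowest adjusted p 0.999). Over all 13162 genes tested 0 were called (0%), 43 were at an unadjusted p under 0.05, and DESeq2 also called 0. The average level did not pass the test either: 0 of 8 genes were called between frozen and fresh IP, against 5.16% of all genes, and 0 of 8 were at an unadjusted p under 0.05. With the mouse as a replicate block the count over all genes was 2168 in place of 679, and 0 of 8 were called there and by DESeq2. The order of the 3 mice within a feeding state was the same in fresh and frozen IP for 7 of 8 genes in fasted and 6 of 8 in fed mice (without Slc10a6). Between fresh IP and Sup it was the same for 2 of 8 genes in fasted and 4 of 8 in fed mice. The high Fkbp5 and Zbtb16 and the low Sgk1, Klf15 and Hsd11b1 of fed C therefore appeared in both IP preparations of that mouse.

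Levels between genes were compared per kilobase of counted span, as CPM per kb. The coding start sites in GENCODE M21 spread over 112726 of the 117719 bases of Sgk1. They spread over 57472 of 60994 bases in Tsc22d3 and 75810 of 87397 in Fkbp5. The start used was not measured, so the counted span may exceed the transcribed part, and the order below depends on that span. Klf15 had the highest level in fresh IP, at 27.7 ± 10.5 CPM per kb in fasted and 24.9 ± 10.9 in fed mice (SD, n = 3 each). In fasted mice Zbtb16 (13.3 ± 2.37 CPM per kb) and Klf9 (13.1 ± 1.21) came next and overlapped. Tsc22d3 (3.88 ± 0.45), Nr3c1 (3.86 ± 0.34) and Fkbp5 (3.77 ± 1.22) followed and overlapped one another, above Hsd11b1 (1.49 ± 0.07), Sgk1 (0.455 ± 0.276) and Slc10a6 (0.006 ± 0.001). In fed mice Klf9 (7.19 ± 0.74 CPM per kb) and Nr3c1 (6.60 ± 0.24) stood next after Klf15 and overlapped. Tsc22d3 (2.59 ± 0.75), Hsd11b1 (2.06 ± 0.60), Zbtb16 (1.65 ± 0.60) and Fkbp5 (1.27 ± 0.86) formed a group with overlapping ranges. Sup of fasted mice was led by Fkbp5 (7.08 ± 2.22 CPM per kb), apart from Nr3c1 (4.23 ± 0.38) and Klf9 (3.98 ± 0.78), which overlapped. Sup of fed mice was led by Nr3c1 (5.71 ± 0.41 CPM per kb), well above Klf9 (1.4 ± 0.27), and Fkbp5 stood at 0.85 ± 0.06.

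The comparison of IP with Sup shows where these transcripts lay, averaged over feeding states. Klf15 was the gene most enriched in hepatocyte nuclei, with a log2 difference of IP over Sup of 4.66 ± 0.35, beside the hepatocyte marker median of 4.53. Zbtb16 (2.43 ± 0.18), Klf9 (1.99 ± 0.13), Tsc22d3 (1.17 ± 0.15) and Hsd11b1 (0.84 ± 0.16) were higher in IP by less than that median. Sgk1 (-1.14 ± 0.43) was lower in IP. Nr3c1 (-0.01 ± 0.06) and Fkbp5 (-0.22 ± 0.34) were not called. For Fkbp5 this average joins unlike feeding states. In fasted mice it had 245 to 449 CPM in fresh IP and 499 to 843 CPM in Sup, without overlap. In fed mice it had 50.0 to 195 CPM in fresh IP and 68.4 to 78.9 CPM in Sup. Slc10a6 passed the filter on low counts only through Sup, and its fitted value of -4.97 ± 0.25 rests on 1 to 7 counts per IP library and depends on the prior count, so it is given as a description. Of the other 8 genes, 6 were called, 5 higher and 1 lower, at adjusted p of 0.0062 or less, against 85.1% of 14322 genes, 42% higher and 43% lower. The SEs in this comparison leave out the pairing by mouse. Within-mouse SEs were 0.12 for Klf15, 0.12 for Zbtb16, 0.06 for Klf9, 0.10 for Tsc22d3 and 0.19 for Hsd11b1. They were 0.41 for Sgk1, 0.05 for Nr3c1 and 0.26 for Fkbp5. The log2 scale used here sets IP and Sup on a common TMM factor. On plain library totals Nr3c1 was lower in IP, at 272 CPM in fresh IP against 390 CPM in Sup of fasted mice and 454 against 510 CPM in fed mice. Without fed library C of fresh IP, Fkbp5 was called lower in IP (-0.58, adjusted p = 0.0222).

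**Figure D3:**
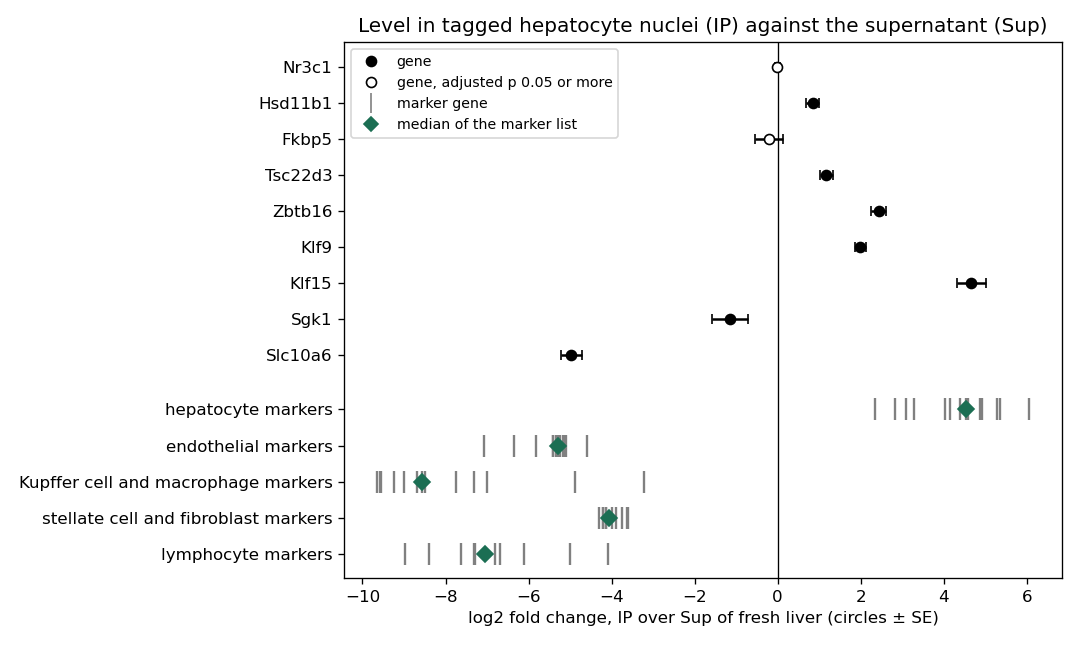
Log2 difference of IP over Sup of fresh liver, averaged over feeding states, for the 9 genes (circles, with SE; open where adjusted p was 0.05 or more) above 5 lists of cell type markers (grey ticks are single genes, diamonds list medians). Klf15 lies at the hepatocyte markers, and Slc10a6, whose value rests on few IP counts, far to the left, while Nr3c1 and Fkbp5 lie near 0.

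The size of the fasting response was then set against that of the other fraction, as IP minus Sup of fresh liver. The difference of the log2 changes was 1.12 ± 0.36 for Zbtb16, -1.54 ± 0.68 for Fkbp5, -0.69 ± 0.29 for Tsc22d3, -0.69 ± 0.26 for Klf9 and -0.39 ± 0.13 for Nr3c1. These SEs leave out that IP and Sup came from the same mice. The SEs of the within-mouse difference were 0.24, 0.52, 0.20, 0.12 and 0.10 in that order of genes. A positive value means a larger rise in IP, and for Nr3c1, which was lower in fasted mice, a negative value means a larger decrease in IP. By edgeR without a block 0 of the 8 genes that passed the filter in IP were called, with 5 at an unadjusted p under 0.05, while 9.54% of 14322 genes were called. Adjusted p was 0.0650 for Zbtb16, 0.0775 for Klf9, 0.112 for Tsc22d3, 0.119 for Nr3c1 and 0.122 for Fkbp5. With the mouse as a replicate block, 2 were called, Zbtb16 at 1.15 (adjusted p = 0.0217) and Klf9 at -0.68 (adjusted p = 0.0282). DESeq2 called 3 of them, namely Zbtb16 at 1.10 (adjusted p = 0.0169), Klf9 at -0.69 (0.0383) and Nr3c1 at -0.40 (0.0360). The fitted difference of Slc10a6, -2.48, rests on the same few IP counts and is not read. Single libraries decided other calls. Without fresh IP fed A, Fkbp5 was called (-1.90, adjusted p = 0.0368). Zbtb16 was called without fresh IP fed C (1.48, 0.0072) or fasted C (1.27, 0.0453), and Klf9 without Sup fasted B (-0.82, 0.0442). Without both libraries of fed C, a setting chosen after seeing the data, Zbtb16 alone was called (1.33, adjusted p = 0.0171).

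The summed marker RNA of hepatocytes and of other cells also differed with feeding. In fresh IP hepatocyte markers summed to 21983 to 29539 CPM in fasted and 16041 to 21914 CPM in fed mice. Single hepatocyte markers were mixed, with 4 of 15 called higher and 2 lower in fresh IP, and 4 and 2 in frozen IP. In fresh IP cholangiocyte markers summed to 270 to 309 CPM in fasted and 650 to 678 CPM in fed mice, and endothelial markers to 43.6 to 96.9 CPM and 83.3 to 157 CPM. In frozen IP 8 of 15 endothelial and 5 of 10 stellate cell markers were called lower in fasted mice, with list medians of -0.81 and -1.02, and endothelial markers summed to 138 to 200 CPM in fasted and 234 to 329 CPM in fed mice. Hepatocyte markers summed to 1071 to 1710 CPM in Sup of fasted and 682 to 1151 CPM in Sup of fed mice, with 3 of 14 tested called higher and 0 lower. Endothelial markers summed to 3745 to 5083 CPM in fasted and 3055 to 4017 CPM in fed Sup, with 2 of 15 called higher. Macrophage markers summed to 4456 to 6056 CPM in fasted and 6015 to 8183 CPM in fed Sup, with 0 of 13 called, and lymphocyte markers to 1765 to 2051 CPM and 2287 to 3140 CPM, with 1 of 10 called lower. No marker of these 5 lists was at 0 throughout a group. The part of these shifts in the changes of the 9 genes was not tested.

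Around the receptor, genes of corticosteroid supply and clearance were among those lower in fasted mice. In fresh IP 5 of 9 tested were lower and 1 higher, in frozen IP 4 and 1, and in Sup 3 and 0. Of all genes tested, 12.6% were lower and 12.4% higher in fresh IP, 11.6% and 11% in frozen IP, and 2.84% and 3.38% in Sup. The list medians were -0.91, -0.90 and 0.19, so in Sup the median had the opposite sign to the 3 calls. Serpina6, which encodes corticosteroid-binding globulin, the plasma carrier of the hormone, fell to 13.7 ± 7.61 CPM in fresh IP of fasted mice, against 145 ± 49.6 CPM in fed mice (SD, n = 3 each). Its change was -3.38 ± 0.56 in fresh IP, -3.37 ± 0.52 in frozen IP and -1.99 ± 0.32 in Sup (adjusted p = 0.0024, 0.0021 and 0.0126). The steroid reductases Akr1d1 and Akr1c6, which act in hormone clearance, fell by 1.27 and 1.55 in fresh IP (adjusted p = 0.0028 and 0.0026), by 1.46 and 1.37 in frozen IP and by 0.96 and 1.11 in Sup, all called. Cyp3a11, a steroid and drug hydroxylase, was higher in fresh IP (0.97 ± 0.25, adjusted p = 0.0151) and frozen IP (1.08, adjusted p = 0.0064), and at 0.67 (adjusted p = 0.251) in Sup. H6pd, which supplies the NADPH for the Hsd11b1 reductase, was at 0.20, 0.34 and 0.37 in fresh IP, frozen IP and Sup and was not called (adjusted p = 0.393, 0.109 and 0.0664).

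Of the receptor chaperones, 6 of 12 were called higher and 0 lower in fresh IP of fasted mice, and 4 and 0 in frozen IP. In Sup 0 of 12 were called. The list medians were 0.57, 0.59 and -0.01 in fresh IP, frozen IP and Sup. Over all genes tested, 12.4% (fresh IP), 11% (frozen IP) and 3.38% (Sup) were called higher. For the response of IP minus Sup 0 of 12 were called, against 9.54% of all genes. Hsp90aa1, the inducible HSP90, rose to 33.4 ± 10.2 CPM in fresh IP of fasted mice, against 13.7 ± 6.72 CPM in fed mice (1.29 ± 0.50, adjusted p = 0.0363), and was at 0.03 ± 0.14 in Sup. Hspa8 was higher in fresh IP (0.83, adjusted p = 0.0420) and not called in frozen IP (0.80, adjusted p = 0.0572). Ahsa1, an activator of HSP90, was higher in fresh IP (0.78, adjusted p = 0.0176) and frozen IP (0.87, adjusted p = 0.0292). Fkbp4, the immunophilin that competes with the Fkbp5 product for the receptor complex, was at -0.34 ± 0.24 in fresh IP, -0.27 ± 0.24 in frozen IP and 0.00 ± 0.14 in Sup, and was not called.

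Among 18 receptor coregulators 3 were higher and 1 lower in fresh IP, 1 higher in frozen IP, and 1 higher and 1 lower in Sup, with medians of 0.04, 0.01 and -0.07. These counts were no larger in IP than the shares over all genes, 25.1% called in fresh and 22.6% in frozen IP, and Sup had 6.22%. The arginine methyltransferase Carm1 (0.43, adjusted p = 0.0225) and the Mediator subunit Med14 (0.36, adjusted p = 0.0433) were higher in fresh IP, and the lysine methyltransferase Ehmt2 was lower (-0.48, adjusted p = 0.0231). Of these, Carm1 was also called in frozen IP (0.47, adjusted p = 0.0364), and none in Sup. Nrip1, which encodes the corepressor RIP140, was at 0.26, 0.28 and 0.09 in fresh IP, frozen IP and Sup and was not called. The mineralocorticoid receptor gene Nr3c2, whose product binds the same DNA element, was at -0.25 ± 0.13 in fresh IP and -0.31 ± 0.18 in frozen IP, not called, and higher in Sup at 0.40 ± 0.05 (adjusted p = 0.0240).

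A further list of 40 genes known to respond to glucocorticoids gave 13 higher and 1 lower of 36 tested in fresh IP, 11 and 3 of 38 in frozen IP, and 15 and 0 of 38 in Sup. Of all genes tested, 12.4% were higher and 12.6% lower in fresh IP, 11% and 11.6% in frozen IP, and 3.38% and 2.84% in Sup. The list medians were 0.67, 0.67 and 0.81. Per1, a clock gene with a well-known glucocorticoid element, rose to 104 ± 33.7 CPM in fresh IP of fasted mice, against 10.2 ± 8.56 CPM in fed mice (3.35 ± 0.71, adjusted p = 0.0061). It was higher by 3.41 in frozen IP and by 2.43 in Sup (adjusted p = 0.0161 and 0.0200). Angptl4, an inhibitor of lipoprotein lipase, was higher by 3.52 in fresh IP, 3.48 in frozen IP and 2.82 in Sup (adjusted p = 0.0022, 0.0036 and 0.0027). Gadd45b and Cdkn1a, a stress gene and the cell cycle inhibitor p21, were higher by 4.55 and 4.54 in fresh IP (adjusted p = 0.0011 and 0.0017). In Sup, Cdkn1a was higher by 1.45 (adjusted p = 0.0278) and Gadd45b was at 0.28 (adjusted p = 0.636). Ddit4, an inhibitor of mTORC1, was lower in fresh IP (-1.19 ± 0.29, adjusted p = 0.0248) and frozen IP (-1.56 ± 0.31, adjusted p = 0.0144) and higher in Sup (3.76 ± 0.80, adjusted p = 0.0171). Dusp1, a MAP kinase phosphatase, was at 0.13 in fresh and 0.19 in frozen IP and was called only in Sup (2.35 ± 0.57, adjusted p = 0.0242). Tat, the tyrosine aminotransferase gene, was at 0.21 ± 0.75, 0.24 ± 0.67 and 0.44 ± 0.65 in fresh IP, frozen IP and Sup and was not called.

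**Figure D4:**
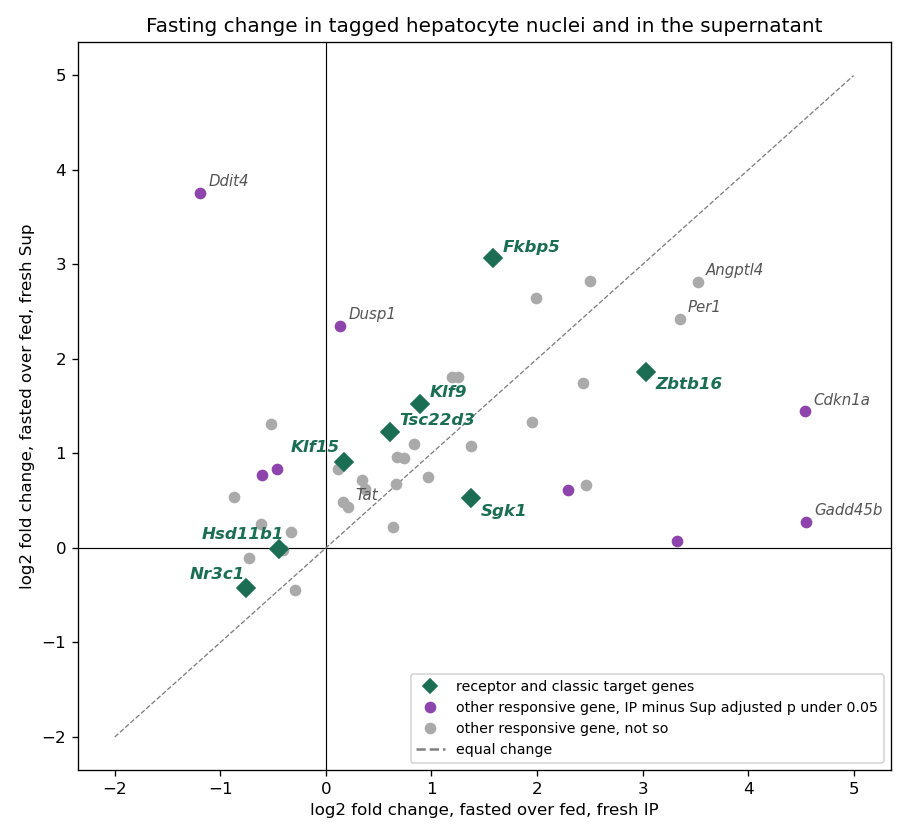
Log2 fold change of fasted over fed in fresh IP (horizontal) and in fresh Sup (vertical) for the 8 genes of glucocorticoid signalling tested in both (green diamonds) and 36 other glucocorticoid-responsive genes (circles, purple where IP minus Sup had an adjusted p under 0.05); the dashed line marks equal change. Of the diamonds, Fkbp5, Tsc22d3, Klf9, Klf15, Nr3c1 and Hsd11b1 lie above the line and Zbtb16 and Sgk1 below it. By edgeR without a block 0 of these 8 genes were called for IP minus Sup. Of the circles, Ddit4 and Dusp1 lie far above and Gadd45b and Cdkn1a far below.

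Genes that respond to glucocorticoids in macrophages had little RNA in IP, where 4 of them passed the filter on low counts in fresh IP and 5 in frozen IP, against 8 in Sup. In Sup 3 of the 8 were higher in fasted mice and 0 lower, and in fresh IP and frozen IP 0 of 4 and 0 of 5 were called, where 3.38% of all genes were higher in Sup and 25.1% and 22.6% were called in fresh and frozen IP. Cd163, the macrophage scavenger receptor for haemoglobin complexes, rose to 754 ± 184 CPM in Sup of fasted mice, against 365 ± 59.6 CPM in fed mice (1.05 ± 0.24, adjusted p = 0.0276). The other two, named after their values were seen, were Ms4a4a (2.93 ± 0.42, adjusted p = 0.0069) and Il1r2, the decoy receptor of interleukin-1 (2.62 ± 0.38, adjusted p = 0.0092). The summed macrophage markers were not higher in these libraries, as given above, and their part in these changes was not tested.

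The genes whose log2 CPM followed each gene most closely over the 12 IP libraries were found by Pearson correlation among 8332 genes. The libraries share mice, since fresh and frozen IP came from the same livers. They also join fasted and fed mice without taking out group means, so a fasting difference that 2 genes share counts towards r. The values are the highest among all genes searched and are a description, not a sign of shared regulation. Nr3c1 was most like Kiz (r = 0.990), Zbtb16 most like Rad51b (0.994), Klf9 most like Fbxo31 (0.989) and Hsd11b1 most like Slc2a2 (0.985), which encodes the glucose transporter GLUT2. Tsc22d3 was most like Slc25a32 (r = 0.983), Fkbp5 most like Tox (0.978), Sgk1 most like Sorbs3 (0.972) and Klf15 most like Irf2bp2 (0.949). The next in order were Nfyb and Rgn for Nr3c1, Shtn1 and Acat1 for Zbtb16, Ogdh and Slc25a33 for Klf9, Per2 and Herc6 for Hsd11b1, Polr1d and Coq10b for Tsc22d3, Abhd2 and Qsox1 for Fkbp5, Elovl2 and Slc25a25 for Sgk1, and Alg14 and Stat3 for Klf15. Slc10a6 had too few counts in IP for such a value to be read.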

How the data were processed

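Bead-bound nuclei and the nuclei left unbound were taken up in Trizol, and 50 to 100 ng of total RNA went into stranded libraries without poly-A selection, read as 50 bp pairs, per the labels' protocols. The authors deposited raw counts per gene for each library; STAR 2.4.2a, DESeq2 1.24.0 and mm10 are named without a role in the submitters' processing notes, and the counter and its strand setting are not given in the sources used here. The deposited length equalled end minus start for all 20105 genes, so introns are included. The authors' deposited table of fasted against fed gives log2 fold changes and adjusted p-values, and how they were computed is not given in the sources used here. Another 6 count columns match no sample and were not used.

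Each comparison was fitted on the raw counts of its own groups with edgeR 4.0.16 in R 4.3.3 (TMM scaling, filterByExpr, quasi-likelihood test), with Benjamini-Hochberg adjustment over all genes tested, in 7 comparisons. SEs were computed from the spread of log2 CPM (prior count of 2) within the groups compared, and CPM was scaled by TMM over all 18 libraries. Replicates are separate mice. Column letters stand in no label and paired the libraries by a check over all genes: for the same letter, deviations from group means had r of 0.555 to 0.902 (frozen with fresh IP) and 0.152 to 0.478 (IP with Sup), and for different letters -0.586 to 0.010. DESeq2 1.42.0, its size factors, no filter, 1 fit of all libraries, the mouse as a block and leaving out each library were the alternatives. The fits were tested on simulated data. Overlaps come from GENCODE M21, promoters from RefSeq.

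The genes and lists were chosen with earlier results of these data known. From each list the text names up to 3 genes with the largest called change in each direction in fresh IP, and Per1, Dusp1, Tat, Serpina6, Nr3c2, H6pd, Fkbp4, Nrip1 and Cd163 whatever their values. A result for 1 gene that this rule names is not reported here. For likeness it names the 3 genes with the highest correlation among those with a mean log2 CPM of at least 3.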

Additional observations from a re-analysis of the deposited data

Results flagged for a closer look

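Among the genes around the receptor that are named above, 5 had a fasting response that differed between IP and Sup of fresh liver by the test of the difference itself (edgeR, adjusted p under 0.05). Over all 14322 genes tested 9.54% were called, and in the list of 40 glucocorticoid-responsive genes 4 of 38 tested were higher and 4 lower. Gadd45b, Cdkn1a and Ddit4 were named for large changes in fresh IP, which enter this difference, so the count of 5 is a description. The SEs below leave out the pairing by mouse. Gadd45b had the largest positive difference, 4.21 ± 0.59 on the log2 scale (adjusted p = 0.0016). In fresh IP it averaged 9.04 ± 3.90 CPM in fasted and 0.393 ± 0.166 CPM in fed mice, and in Sup 1.86 ± 0.59 and 1.55 ± 0.34 CPM (SD, n = 3 each). Cdkn1a differed by 3.03 ± 0.80 (adjusted p = 0.0121), with 35.6 ± 14.3 CPM in IP of fasted and 1.57 ± 0.90 CPM in IP of fed mice, and was called higher in both fractions. Ddit4 differed by -5.00 ± 0.85 (adjusted p = 0.0024) and was called in opposite directions in the 2 fractions. It averaged 1.15 ± 0.08 CPM in IP of fasted and 2.69 ± 0.92 CPM in IP of fed mice, and 9.75 ± 5.66 CPM in Sup of fasted and 0.71 ± 0.36 CPM in Sup of fed mice. Dusp1 differed by -2.27 ± 0.80 (adjusted p = 0.0463), with 77.7 ± 39.9 CPM in Sup of fasted and 15.3 ± 5.41 CPM in Sup of fed mice. Nr3c2, the mineralocorticoid receptor gene, differed by -0.71 ± 0.14 (adjusted p = 0.0221). Summed endothelial and hepatocyte markers were higher in Sup of fasted mice, as given above, and their part in these differences was not tested.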

How the results depend on the processing

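No value of the 9 genes changed direction past the threshold under an alternative: of their log2 changes recomputed, 793 stayed on the same side of the threshold, 23 newly passed it and 21 no longer did. With DESeq2, 1881 genes were called in Sup (866 by edgeR) and 2326 for the response of IP minus Sup (1367 by edgeR), 4 of the 9 genes among them (0 by edgeR), 1 of these Slc10a6, which passed the filter only through Sup. Further calls by DESeq2 were Tsc22d3 in fresh IP (0.59, adjusted p = 0.0320) and frozen IP (0.56, 0.0250), Sgk1 in frozen IP (1.37, 0.0129) and Klf15 in Sup (0.90, 0.0382), and 1 fit of all 18 libraries also called Tsc22d3 in fresh IP (0.58, 0.0316) and frozen IP (0.57, 0.0349). With the mouse as a replicate block, 2 of the 9 genes were called for IP minus Sup and 2168 genes for frozen minus fresh IP (679 without), and the block changed no other call of the 9 genes. Without both libraries of fed C, chosen after seeing the data, IP minus Sup gave 840 calls, 1 among the 9 genes. Leaving out each library gave 1429 to 2643 calls in fresh IP, 1168 to 2271 in frozen IP, 197 to 624 in Sup, 771 to 1485 for the response of IP minus Sup with 0 to 2 of the 9 genes, and 409 to 711 for frozen minus fresh IP. The cause of these shifts was not tested, beside the fewer samples of the left-out fits. On plain library totals 15 of 54 group levels moved by more than their SD, and without length scaling 33 of 54 ranks of level moved. Groups of 3 and the low counts of Slc10a6 in IP limit the precision.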

Other observations

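The mouse behind fed column C stood apart from the other fed mice in several of the 9 genes in both IP preparations. In fresh IP it had 195 CPM of Fkbp5, where the other fed libraries had 50.0 and 86.8 CPM, and 425 CPM of Zbtb16, where they had 241 and 233 CPM. It also had 6.38 CPM of Sgk1, where they had 26.0 and 31.0 CPM, and 158 CPM of Klf15, where they had 418 and 365 CPM. In frozen IP fed A, B and C had 45.6, 89.2 and 176 CPM of Fkbp5 and 231, 185 and 418 CPM of Zbtb16. They had 24.3, 28.4 and 8.39 CPM of Sgk1 there. Klf15 had 378, 225 and 153 CPM in frozen IP, so fed C was the lowest but did not stand apart from fed B. In Sup the same letter was also the highest fed library in Fkbp5 (78.9 CPM, the others 68.4 and 76.3 CPM) and Zbtb16 (93.9 CPM, the others 82.3 and 64.5 CPM). It was the lowest there in Sgk1 (53.5 CPM, the others 63.5 and 61.0 CPM) and Klf15 (6.08 CPM, the others 12.3 and 9.13 CPM). Hsd11b1 did not follow this. Fed C was its lowest fed library in fresh IP (58.2 CPM) and its highest in Sup (43.70 CPM, the others 43.65 and 33.2 CPM). In Fkbp5 the Sup gap was small, and fed C did not stand apart there. The order of the 3 fed mice was the same in fresh IP and Sup for 4 of 8 genes (without Slc10a6).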
